A study of Mus musculus with 9 samples.

Results

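The genes described here are 10 cytoplasmic regulators of NF-kB signalling, namely the IkB kinases and related kinases Chuk, Ikbkb, Ikbkg, Map3k14 and Tbk1, the TRAF adaptors Traf2 and Traf3, and the ubiquitin-editing regulators Tnfaip3, Tnip1 and Cyld. They were chosen by gene symbol, and all 10 were found among the 23329 symbols of the count table and passed the filter on low counts, which left 12402 genes for testing. Polyadenylated RNA of pancreatic islets from male mice was sequenced in 9 libraries, of which 5 are titled mutant and 4 control. The mutants carry the genotype Pdx1A4, an allele that the labels name without describing it. The controls are Pdx1+/- and so are heterozygous for Pdx1, the homeodomain factor of pancreas formation and of the beta cell, rather than wild type. Both groups are male, and ages were not given. The series title links NF-kB and circadian enhancers with beta cell function and therapy against IL-1B, and mutant against control is the comparison these libraries allow.

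NF-kB transcription factors are held inactive by IkB proteins. In the classical route, receptors of the TNF and interleukin 1 families recruit TRAF proteins, which are ubiquitin ligases or adaptors, and ubiquitin chains gather the IkB kinase complex. That complex consists of the catalytic subunits Chuk (IKK alpha) and Ikbkb (IKK beta) and the scaffold Ikbkg (NEMO), and it phosphorylates IkB for destruction. In the alternative route, Map3k14 (NIK) activates Chuk, and a complex of Traf2, Traf3 and cIAP ligases keeps NIK low by marking it for degradation. Tnfaip3 (A20), its partner Tnip1 (ABIN1) and the deubiquitinase Cyld restrain signalling on the ubiquitin side, and A20, itself induced by NF-kB, is known to protect islet cells from cytokine-induced death.

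Promoter sequence is shown for Tnfaip3 and Tnip1 because they encode an inhibitor and its partner, both hold matches to the NF-kB binding consensus, and their transcripts differed between the groups in opposite directions. Sequences are those of RefSeq on GRCm38.p6, and capitals mark matches to the 10-letter kB consensus on either strand and, in Tnfaip3, the E-box CACGTG, the element bound by clock activators. The first lies at chr10:19015411-19015550 on the minus strand, directly before a transcript start. The second lies at chr11:54962961-54963060 on the minus strand and ends 21 bases before the start used in the RefSeq promoter table. RefSeq ends the gene itself at 54962956, beyond that start, and the bases after that start were not found in the GENCODE M21 transcripts of Tnip1, so its distance to the start is uncertain.
Tnfaip3: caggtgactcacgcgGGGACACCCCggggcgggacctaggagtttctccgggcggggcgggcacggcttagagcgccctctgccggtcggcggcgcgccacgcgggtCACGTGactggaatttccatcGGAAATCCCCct
Tnip1: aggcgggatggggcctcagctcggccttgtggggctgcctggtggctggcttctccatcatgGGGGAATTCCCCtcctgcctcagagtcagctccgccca

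Of the 10 genes, 9 had a promoter entry. Within 250 bases before an annotated start, the kB consensus was found in 4 of them (Tnfaip3, Tnip1, Traf3 and Cyld). Of 32851 windows of that length over all genes, 3.90% held it. A gene counted if any of its windows matched, and Ikbkg had 4 windows and Tnfaip3 2, so genes and windows are unlike units. The consensus search was also added after these promoters were seen, so the count is no evidence of enrichment. In Tnip1 the capitals are 4 overlapping matches over 12 bases. The starts used for Traf3 and Cyld lie downstream of where RefSeq begins these genes (111166321 and 88696878). The Traf3 match thus lies inside the RefSeq gene, and the Cyld match spans its first base. The matches in Traf3 and Cyld, and for comparison the one in Nfkbia, the gene of the NF-kB-induced inhibitor IkB alpha, read as follows on the strand of each gene.
Traf3: GGGGATTTCC
Cyld: GGAAAGTCCC
Nfkbia: GGAAATTCCC
A looser kB pattern, which includes each consensus match, was present in at least 1 window of all 9 genes. It was absent from some windows of Ikbkg, and 45.8% of windows over all genes held it. The E-box CACGTG was present in 1 gene, Tnfaip3, and in 6.02% of windows. These are matches of letters, not measured binding.

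The libraries held 7186462 to 9163253 counts in mutants and 6092010 to 7375376 in controls. Pdx1 averaged 12.9 ± 6.91 CPM in mutants and 29.5 ± 5.54 CPM in controls (SD, n = 5 mutants and 4 controls), where CPM is the count scaled to library size with TMM factors, and each mutant lay below each control. The tissue make-up differed between the groups. The 7 hormone genes held 0.0691% to 7.99% of counts in mutants and 16.9% to 21.05% in controls, lowest in mutants 2 (0.0691%) and 3 (1.21%). The 20 acinar markers held 12.2% to 21.5% of counts in mutants and 2.68% to 4.44% in controls. Mutant 2, labelled as islet, had few islet transcripts, and its 11 beta cell markers summed to 725 CPM. For 9 marker lists, the mean log2 CPM over each list was compared by exact two-sided permutation. Acinar and ductal levels were higher and 4 endocrine lists lower in mutants (adjusted exact p from 0.0357 to 0.0476). For these lists neither the means nor the summed CPM, which was not tested, overlapped between groups. The endothelial, leukocyte and stellate lists overlapped (lowest adjusted exact p = 0.188). In such bulk RNA, fewer cells of a type and less RNA per cell cannot be told apart. Nothing in the labels says that libraries come from separate mice, so the p-values reflect variation among libraries that may be technical.

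Across the 10 genes, transcripts of the NEMO scaffold, IKK beta and ABIN1 rose in mutants and A20 transcripts fell. The other 6 (Chuk, Map3k14, Tbk1, Traf2, Traf3 and Cyld) did not pass the test. The test was edgeR's quasi-likelihood fit over all 12402 genes, called at a Benjamini-Hochberg adjusted p under 0.05. The 3 genes that rose compare with 20.5% of all genes tested called higher, and the 1 that fell with 11.4% called lower, and 32.0% either way, so that with 10 genes the counts are near the background. The counts depended on the fit. Relative log expression scaling called 1 gene higher and 2 lower, against 17.2% and 15.9% of all genes. DESeq2 called 2 and 2 (20.3% and 20.6% of all genes) and limma-voom 3 and 2 (24.2% and 18.2%). Without the low-count filter, 1 and 1 were called (12.0% and 8.59%), with the replicate block 1 and 1 (13.4% and 5.98%), without mutants 2 and 3 again 1 and 1 (10.9% and 9.70%), and with the endocrine score as a term 0 and 0 (3.48% and 0.452%). The median log2 fold change was 0.06 over the 10 genes and 0.04 over all genes tested. Fold changes depend by a small constant on scaling: with scaling by relative log expression the median over all genes moved by -0.10.

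**Figure D1:**
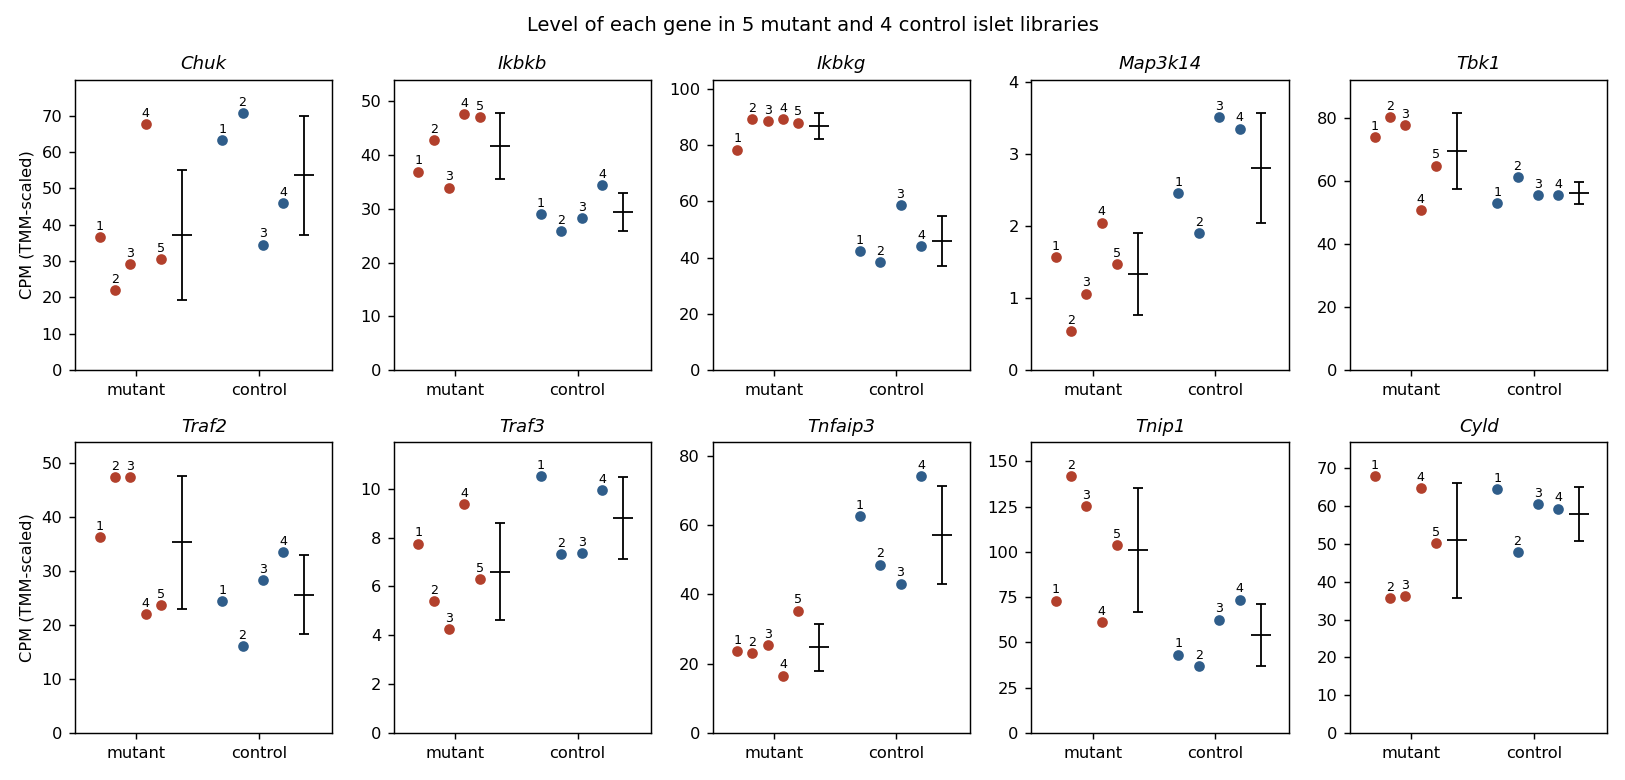
Level of each gene in CPM (TMM-scaled, linear axis from 0) in 5 mutant libraries (red, left) and 4 control libraries (blue, right), numbered by replicate, with mean and SD (black). Ikbkg lies between 78.5 and 89.4 CPM in mutants, above each control, and Tnfaip3 between 16.5 and 35.3 CPM in mutants, below each control, whereas the groups overlap for the other 8 genes.

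Of the catalytic subunits of the IKK complex, Ikbkb rose and Chuk did not pass the test, and the difference between them was not tested. Ikbkb (chromosome 8, 22659205 to 22706589 of GRCm38, the build of all coordinates given here), the kinase of the classical route, had 36.9, 42.9, 34.0, 47.7 and 47.1 CPM in mutants 1 to 5 and 29.0, 25.9, 28.3 and 34.4 CPM in controls 1 to 4. Every mutant except mutant 3 lay above the highest control, control 4. Mutant over control, the log2 fold change was 0.50 ± 0.15 (SE; edgeR adjusted p = 0.0307), from 41.7 ± 6.097 CPM in mutants and 29.4 ± 3.60 CPM in controls (SD, n = 5 mutants and 4 controls). The call was lost in 7 of 9 fits that each left out 1 library, all but those without control 4 or mutant 1 (highest edgeR adjusted p = 0.110), with log2 fold changes between 0.35 and 0.59. It was also lost without mutants 2 and 3, where the log2 fold change was 0.52 (edgeR adjusted p = 0.0665). Nor did Ikbkb pass with DESeq2 (adjusted p = 0.0539) or with relative log expression scaling (edgeR adjusted p = 0.0689). Without the low-count filter it was lost too (edgeR adjusted p = 0.0750), while limma-voom called it (adjusted p = 0.0280).

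Chuk (chromosome 19, 44073334 to 44107505), the kinase that also serves the alternative route, had 36.6, 22.0, 29.3, 67.7 and 30.5 CPM in mutants 1 to 5 and 63.3, 70.7, 34.5 and 45.9 CPM in controls 1 to 4. Mutant 4 stood with the higher controls, and mutants 2, 3 and 5 lay below the lowest control. This corresponded to -0.53 ± 0.33 on the log2 scale (SE) and did not pass (edgeR adjusted p = 0.238). Without mutant 4 it was -0.90 and passed (edgeR adjusted p = 0.0272). A covariate for endocrine content (the endocrine score, a mean over 20 granule exocytosis genes) turned its sign, to 0.09 (edgeR adjusted p = 0.931). That score was at most 6.06 in mutants and at least 6.78 in controls, and the group explained 51.1% of its variance. In every fit with this score, group and endocrine content therefore cannot be fully told apart.

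The counts of Chuk and Ikbkb were set against each other within each library, a ratio that no library scaling affects. The ratio of Chuk to Ikbkb counts was 0.990, 0.513, 0.862, 1.42 and 0.648 in mutants 1 to 5 and 2.18, 2.73, 1.22 and 1.33 in controls 1 to 4. Chuk reads thus outnumbered Ikbkb reads in each control, and in mutants only in mutant 4, whose ratio lay within the control range. These are ratios of reads from transcripts of different length, not of molecules. Tbk1 counts were 1.72 ± 0.494 times those of Ikbkb in mutants and 1.94 ± 0.317 times in controls (SD, n = 5 mutants and 4 controls), with overlapping groups.

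Ikbkg (chromosome X, 74393233 to 74456792), the NEMO scaffold that binds ubiquitin chains and holds the kinases, showed the most even levels of the 10 genes among the mutants. Its level was 78.5, 89.2, 88.6, 89.4 and 88.0 CPM in mutants 1 to 5 and 42.2, 38.5, 58.7 and 44.3 CPM in controls 1 to 4. The groups did not overlap, a pattern seen with mutants higher in 18.5% of all genes tested and in either direction in 33.2%. The highest mutant was 1.14 times the lowest, and the highest control 1.52 times the lowest. On the log2 scale the fold change was 0.92 ± 0.15 (SE; edgeR adjusted p = 0.0031), 86.7 ± 4.66 CPM in mutants and 45.9 ± 8.84 CPM in controls (SD, n = 5 mutants and 4 controls). It passed in all 9 fits that left out 1 library and without mutants 2 and 3 (0.83, edgeR adjusted p = 0.0151). It did not pass with the endocrine score as a covariate, where its log2 fold change of 0.84 had an edgeR adjusted p of 0.0507, or with the acinar score, where it was 0.35.

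Map3k14 (chromosome 11, 103219764 to 103267401), which encodes NIK, was scarce in both groups. It had 13, 4, 7, 14 and 11 counts in mutants 1 to 5 and 18, 13, 30 and 30 counts in controls 1 to 4. Scaled to CPM, every mutant except mutant 4 lay below the lowest control. As a log2 fold change this was -1.06 ± 0.41 (SE) and did not pass (edgeR adjusted p = 0.0671), while DESeq2 called it (-1.18, adjusted p = 0.0238), as did limma-voom (-1.17, adjusted p = 0.0313), edgeR with scaling by relative log expression (adjusted p = 0.0489) and edgeR without mutant 4 (adjusted p = 0.0472). These were the only calls in 19 alternative fits. The fall was smaller once mutants 2 and 3 were left out (-0.79, edgeR adjusted p = 0.183). Adding the endocrine score brought it to -0.30 (edgeR adjusted p = 0.791). At such counts the size of a difference is uncertain. NIK is controlled mainly as a protein, which these data do not measure.

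Tbk1 (chromosome 10, 121546455 to 121586794), an IKK-related kinase of innate immune signalling, had 74.0, 80.5, 78.0, 50.9 and 65.0 CPM in mutants 1 to 5 and 53.0, 61.3, 55.6 and 55.5 CPM in controls 1 to 4. Each mutant except mutant 4 exceeded all controls, and mutant 4 was the lowest of the 9 libraries. Mutant over control, the log2 fold change was 0.31 ± 0.15 (SE) and did not pass (edgeR adjusted p = 0.143), and it passed in none of the 19 alternative fits (lowest adjusted p = 0.0583, edgeR without mutant 4). Without mutant 2 it was 0.19.

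Traf2 (chromosome 2, 25517982 to 25546940), the adaptor of TNF receptors, had 36.2, 47.3, 47.3, 21.9 and 23.7 CPM in mutants 1 to 5 and 24.3, 16.1, 28.3 and 33.5 CPM in controls 1 to 4. Mutants 1, 2 and 3 lay above all controls, and mutants 4 and 5 lay within the control range. This corresponded to 0.46 ± 0.29 on the log2 scale (SE; edgeR adjusted p = 0.241), and without mutants 2 and 3 it was 0.03 (edgeR adjusted p = 0.947). Leaving out control 2, mutant 2 or mutant 3 alone brought it to 0.21, 0.27 or 0.28.

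Traf3 (chromosome 12, 111166321 to 111267155), which brings NIK to its ligases, had 7.75, 5.39, 4.25, 9.36 and 6.29 CPM in mutants 1 to 5 and 10.5, 7.32, 7.38 and 9.95 CPM in controls 1 to 4. Mutants 2, 3 and 5 lay below the lowest control. On the log2 scale the fold change was -0.41 ± 0.26 (SE) and did not pass (edgeR adjusted p = 0.244). Without mutant 4 it was -0.62 (edgeR adjusted p = 0.103). The ratio of Traf2 to Traf3 counts was 4.67, 8.78, 11.1, 2.34 and 3.77 in mutants 1 to 5, against 2.31, 2.20, 3.84 and 3.37 in controls 1 to 4. Mutants 1, 2 and 3 lay above all controls, mutants 4 and 5 within their range. For every Traf3 read there were 0.201 ± 0.0592 Map3k14 reads in mutants and 0.327 ± 0.109 in controls (SD, n = 5 mutants and 4 controls), and these groups overlapped.

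Tnfaip3 (chromosome 10, 19000910 to 19015410), the A20 gene whose promoter is shown above, was the 1 gene that fell. It had 23.6, 23.1, 25.3, 16.5 and 35.3 CPM in mutants 1 to 5 and 62.6, 48.6, 43.1 and 74.2 CPM in controls 1 to 4. Each mutant lay below each control, as was so for 14.7% of all genes tested, and the mutant mean was 43.4% of the control mean. As a log2 fold change this was -1.20 ± 0.23 (SE; edgeR adjusted p = 0.0060), 24.8 ± 6.78 CPM in mutants and 57.1 ± 14.0 CPM in controls (SD, n = 5 mutants and 4 controls). All 9 fits that left out 1 library called it, with log2 fold changes between -1.37 and -1.05. Without mutants 2 and 3 the log2 fold change was -1.24 (edgeR adjusted p = 0.0196), and adding the endocrine score gave -1.13, which did not pass (edgeR adjusted p = 0.0910).

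The acinar share moved with the groups, and the group explained 94.2% of the variance of the acinar score, the mean level of the acinar markers. With that score as a covariate the sign of Tnfaip3 turned, to 0.80 (edgeR adjusted p = 0.998). In that fit edgeR called 0 of the 10 genes and 0 of all genes, with 0 of the 10 and 356 of all 12402 genes (2.87%) at an unadjusted p under 0.05, so group and acinar share cannot be told apart there. A20 is also abundant in leukocytes. The 14 leukocyte markers summed to 395 to 660 CPM in mutants and 153 to 523 CPM in controls, a sum in which Cd14 was the largest part in 7 of 9 libraries, and the pan-leukocyte gene Ptprc had 0.293 to 7.99 CPM in mutants and 2.34 to 7.71 CPM in controls. In 3 mutants Ptprc lay below the lowest control. For C1qa each mutant lay below each control, and for Emr1 and C1qb 4 mutants lay below the lowest control. C1qa, Emr1 and C1qb had log2 fold changes of -1.57, -1.45 and -1.06, whereas Cd14, Cd68, Cd79a and Lyz2 had 0.94, 0.92, 0.50 and 0.43. Of the 11 leukocyte markers tested 0 were called in either direction. Their median log2 fold change was -0.41, and their part in the result was not tested.

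Tnip1 (chromosome 11, 54910787 to 54962956), which encodes the A20 partner ABIN1, rose. It had 73.0, 142, 125, 61.2 and 104 CPM in mutants 1 to 5 and 43.2, 36.7, 62.5 and 73.7 CPM in controls 1 to 4. Mutants 2, 3 and 5 lay above all controls, while mutants 1 and 4 overlapped with controls 3 and 4. Mutant over control, the log2 fold change was 0.90 ± 0.30 (SE; edgeR adjusted p = 0.0419), 101 ± 34.0 CPM in mutants and 54.0 ± 17.1 CPM in controls (SD, n = 5 mutants and 4 controls). The call was lost without mutants 2 and 3, the libraries with the least hormone RNA, where the log2 fold change was 0.49 (edgeR adjusted p = 0.244). It was also lost without any 1 of controls 1, 2 and 3 and mutants 2, 3 and 5 (highest edgeR adjusted p = 0.128). Relative log expression scaling (edgeR adjusted p = 0.0633) and the fit without the low-count filter (edgeR adjusted p = 0.0619) lost it too. DESeq2 and limma-voom called Tnip1 (adjusted p = 0.0364 and 0.0266).

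Within each library the counts of the A20 gene were set against those of its partner and of another NF-kB-induced inhibitor. The ratio of Tnfaip3 to Tnip1 counts was 0.323, 0.162, 0.202, 0.270 and 0.341 in mutants 1 to 5 and 1.45, 1.32, 0.689 and 1.01 in controls 1 to 4. The groups did not overlap, but the ratio of Tnfaip3 to any other tested gene showed the same separation for 54.9% of 11821 genes. The ratio of Tnfaip3 to Nfkbia counts was 0.138 ± 0.0382 in mutants and 0.153 ± 0.0445 in controls (SD, n = 5 mutants and 4 controls), and the groups overlapped. Nfkbia itself had -1.09 ± 0.21 (SE) as its log2 fold change (edgeR adjusted p = 0.0055), and each mutant lay below each control.

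**Figure D2:**
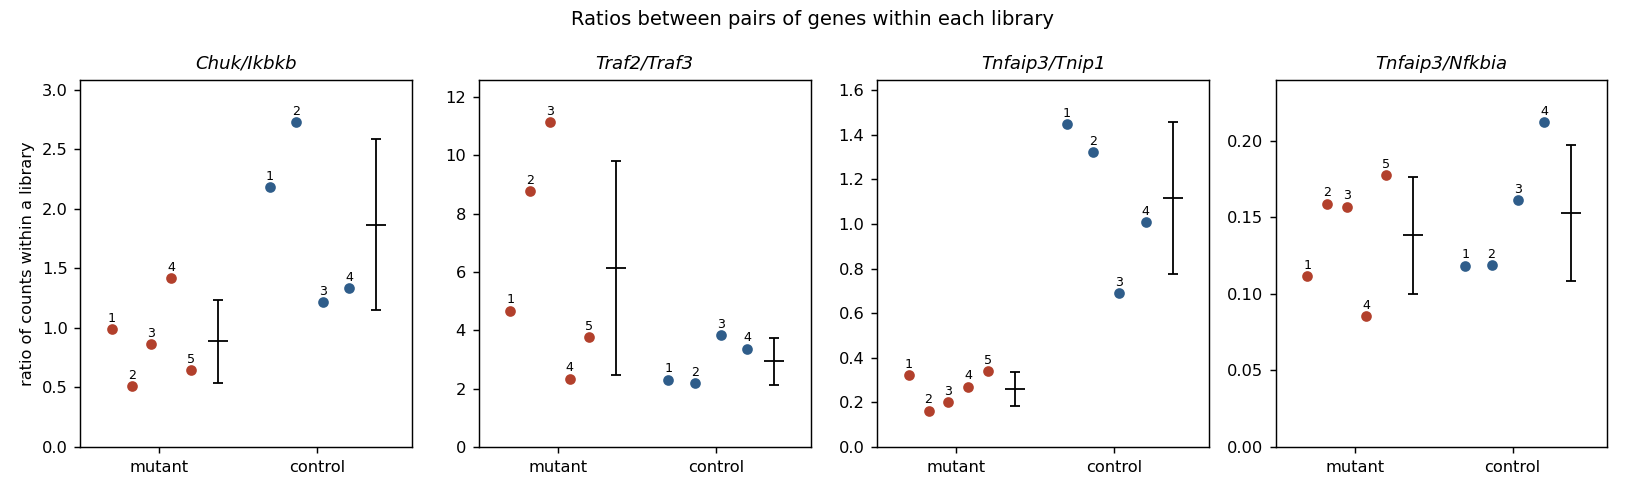
Ratios of counts between pairs of genes within each library (linear axes from 0) in 5 mutants (red, left) and 4 controls (blue, right), numbered by replicate, with mean and SD (black). The ratio of Tnfaip3 to Tnip1 is at most 0.341 in mutants and at least 0.689 in controls, whereas the other 3 ratios overlap, Chuk to Ikbkb through mutant 4 alone.

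Cyld (chromosome 8, 88696878 to 88751946), the deubiquitinase of linear and lysine-linked ubiquitin chains, had 68.1, 35.7, 36.3, 64.8 and 50.2 CPM in mutants 1 to 5 and 64.5, 47.9, 60.5 and 59.3 CPM in controls 1 to 4. Mutants 2 and 3 lay below all controls and mutants 1 and 4 above them. This corresponded to -0.19 ± 0.22 on the log2 scale (SE; edgeR adjusted p = 0.530), and without mutants 2 and 3 it was 0.01. Leaving out control 2, mutant 4 or mutant 1 alone moved it the other way, to -0.36, -0.34 or -0.32, and it did not pass in any of these fits. The ratio of Tnfaip3 to Cyld counts was 0.530 ± 0.213 in mutants and 0.987 ± 0.221 in controls (SD, n = 5 mutants and 4 controls), and the highest mutant, at 0.704, lay just below the lowest control, at 0.712.

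**Figure D3:**
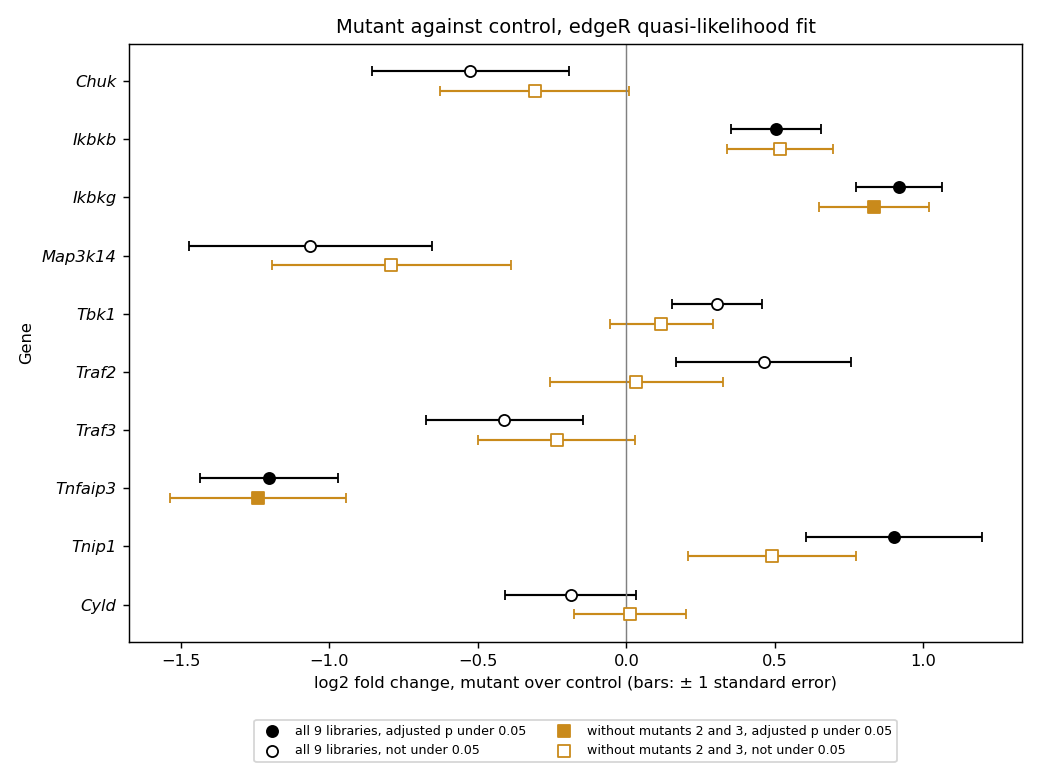
Log2 fold change of each gene, mutant over control, from the edgeR fit on all 9 libraries (black circles) and without mutants 2 and 3 (yellow squares), with bars of 1 standard error. Filled symbols have an adjusted p under 0.05. Ikbkg (0.92 and 0.83) and Tnfaip3 (-1.20 and -1.24) are filled in both fits, Ikbkb and Tnip1 with all libraries only.

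Set out by library, the mutants differed among themselves for most of the 10 genes. Mutants 2 and 3, with the lowest hormone shares, had the highest Tnip1, Traf2 and Tbk1 levels of the 9 libraries and the lowest Map3k14, Traf3 and Cyld levels. They also held the lowest Chuk levels. Mutant 4, with the highest acinar share at 21.5% and a hormone share of 4.70%, had the highest Chuk, Map3k14 and Traf3 of the mutants and the lowest Tnfaip3, Tnip1, Tbk1 and Traf2. Ikbkg and Ikbkb varied least among the mutants, with SDs of log2 CPM of 0.08 and 0.21. In 9 of the 10 genes, all but Ikbkg, the SD of log2 CPM was larger among mutants than among controls, as it was in 6932 of 12402 genes tested (55.9%). Over the 10 genes the median SD was 0.43 in mutants and 0.31 in controls, and over all genes tested it was 0.35 in mutants and 0.32 in controls. The part of hormone and acinar share in these differences among mutants was not tested. The covariate fits compared mutants with controls, and none of them used the hormone share.

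**Figure D4:**
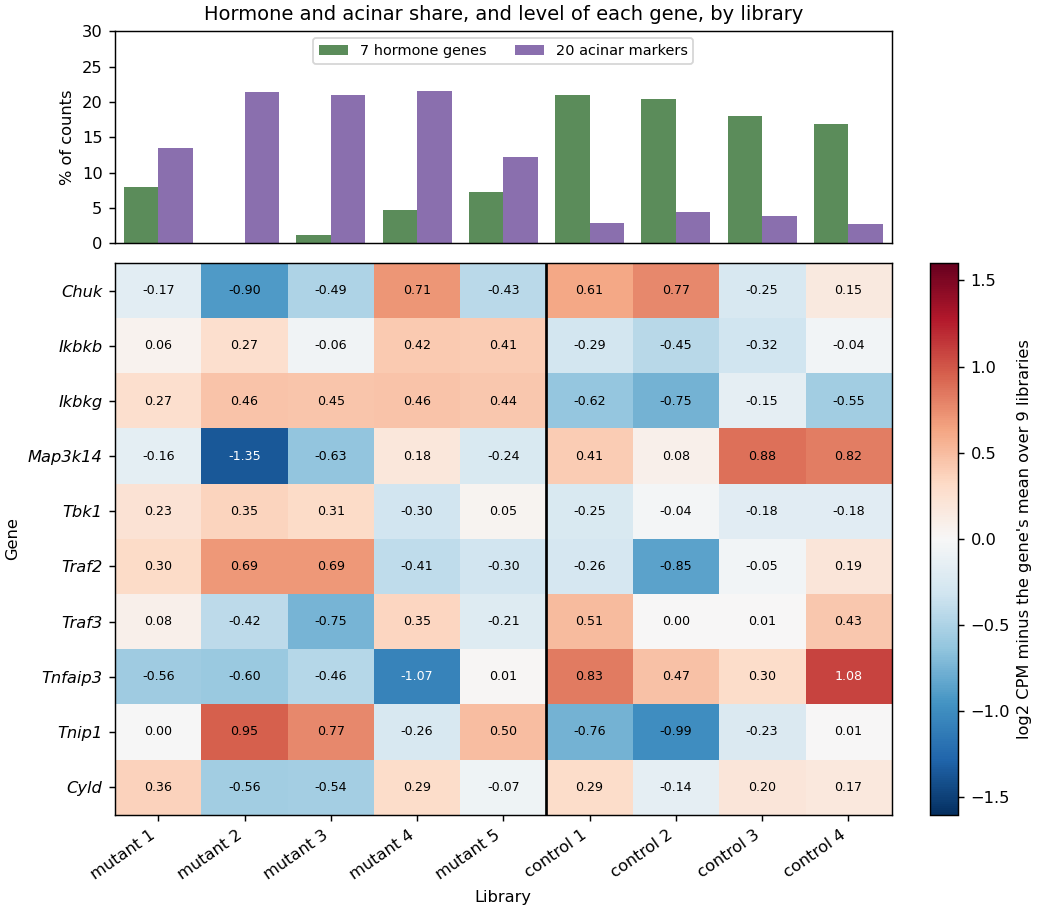
Top, share of counts held by 7 hormone genes (green) and 20 acinar markers (purple) in each library. Bottom, log2 CPM of each gene minus its mean over the 9 libraries, mutants left of the line and controls right. Mutants 2 and 3 have the lowest hormone shares and stand out for Tnip1 (0.95 and 0.77), Traf2 (0.69 in both) and Map3k14 (-1.35 and -0.63), while Ikbkg is positive in each mutant and negative in each control.

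Levels of different genes were compared only per length, as CPM per kilobase of annotated exons. In mutants the order was Tnip1 (33.3 ± 11.2), Tbk1 (23.0 ± 3.97), Ikbkg (11.8 ± 0.636), Traf2 (11.5 ± 4.01), Chuk (10.6 ± 5.09), Ikbkb (9.202 ± 1.35), Cyld (6.24 ± 1.87), Tnfaip3 (5.39 ± 1.48), Traf3 (0.923 ± 0.280) and Map3k14 (0.315 ± 0.134; SD, n = 5). In controls it was Tbk1 (18.6 ± 1.16), Tnip1 (17.8 ± 5.64), Chuk (15.3 ± 4.68), Tnfaip3 (12.4 ± 3.06), Traf2 (8.34 ± 2.40), Cyld (7.11 ± 0.877), Ikbkb (6.49 ± 0.793), Ikbkg (6.26 ± 1.21), Traf3 (1.23 ± 0.235) and Map3k14 (0.661 ± 0.179; SD, n = 4). Most neighbours in these orders differed by less than the larger of their SDs. The exceptions were Tbk1 to Ikbkg, Ikbkb to Cyld, Tnfaip3 to Traf3 and Traf3 to Map3k14 in mutants, and in controls Tnfaip3 to Traf2, Ikbkg to Traf3 and Traf3 to Map3k14.

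For the genes that passed, the genes closest in pattern were those with the smallest root mean square difference in centred log2 CPM over the 9 libraries, out of 11863 genes. For Tnfaip3 these were the receptor phosphatase gene Ptprm (0.15), Pitpnm2 (0.18) and the phospholipase C gene Plcb1 (0.20). For Ikbkg they were Mrps2 (0.07), Ltv1 (0.07) and Samm50 (0.10), for Ikbkb Scmh1 (0.09), Sdccag3 (0.10) and Inadl (0.10), and for Tnip1 D19Wsu162e (0.10), Micall2 (0.16) and Tjp3 (0.16). Among the 10 genes the most alike pair was Traf3 and Cyld, at 0.19, and the least alike was Map3k14 and Tnip1, at 1.17.

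The wider pathway was read from 6 lists of 81 genes, of which 77 were tested. In all, 18 genes (23.4%) rose and 7 (9.09%) fell, close to the shares over all genes tested, with a median log2 fold change of 0.19. Without mutants 2 and 3, 5 rose and 7 fell, where 10.9% of all genes tested were called higher and 9.70% lower. Each list holds few genes, and no list was tested against the other genes. Among 14 IKK-activating and IKK-related kinases and adaptors, 1 rose and 1 fell. These were Cdc37, a co-chaperone of kinases including the IKKs (149 ± 6.49 CPM in mutants, SD, n = 5, and 101 ± 10.1 CPM in controls, SD, n = 4; log2 fold change 0.57, edgeR adjusted p = 0.0072), and Ikbip (-1.33, edgeR adjusted p = 0.0267). The Ikbip call was lost in 4 of 9 fits that left out 1 library (controls 1 and 2, mutants 3 and 5; edgeR adjusted p from 0.0513 to 0.0576), and adding the endocrine score gave -0.34 (edgeR adjusted p = 0.605). With that score as a covariate, Traf4 was the 1 gene to pass of the 18 called genes named from these lists.

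Upstream of the TRAFs and NIK, of 14 TNF and interleukin 1 family receptors 3 rose and 0 fell, against 20.5% and 11.4% of all genes, and without mutants 2 and 3, 2 rose and 1 fell, against 10.9% and 9.70%. Tnfrsf12a, the TWEAK receptor, had 168 ± 45.3 CPM in mutants and 47.8 ± 17.4 CPM in controls (SD, n = 5 mutants and 4 controls; log2 fold change 1.81, edgeR adjusted p = 0.0033). The ectodysplasin receptor gene Eda2r and the lymphotoxin beta receptor gene Ltbr rose by 2.25 and 0.92 on the log2 scale, and Ltbr was lost without mutants 2 and 3 (edgeR adjusted p = 0.0815) and without mutant 3 alone (edgeR adjusted p = 0.0535). Of 14 TRAF-cIAP ligases and receptor adaptors 7 rose and 2 fell, against 20.5% of all genes called higher and 11.4% lower, and without mutants 2 and 3, 1 rose and 1 fell, against 10.9% and 9.70%. Traf4 had 36.0 ± 10.4 CPM in mutants and 10.3 ± 2.26 CPM in controls (SD, n = 5 mutants and 4 controls; log2 fold change 1.80, edgeR adjusted p = 0.0025). Birc2, the cIAP ligase that works with Traf2 and Traf3, had a log2 fold change of -0.74 (edgeR adjusted p = 0.0073). The TNF receptor adaptor gene Tradd rose by 0.75 and Traf7 by 0.57, and both were lost without mutants 2 and 3 (edgeR adjusted p = 0.0728 and 0.144). Traf7 was also lost in 4 of 9 fits that left out 1 library.

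On the ubiquitin side, a list of 12 genes held A20 partners, ubiquitin-binding adaptors and others. Of these 12 genes 4 rose and 0 fell, against 20.5% and 11.4% of all genes, and without mutants 2 and 3, 1 rose, against 10.9%. Tnip3, which encodes ABIN3, a relative of ABIN1, had 125.6 ± 29.7 CPM in mutants and 38.1 ± 13.8 CPM in controls (SD, n = 5 mutants and 4 controls; log2 fold change 1.72, edgeR adjusted p = 0.0038). Tnfaip8, which is neither an A20 partner nor a ubiquitin-binding adaptor, rose by 0.70. The ubiquitin ligase gene Itch rose by 0.54 and the A20 adaptor gene Tax1bp1 by 0.44. Without mutants 2 and 3 none of Tnfaip8, Itch and Tax1bp1 passed (lowest edgeR adjusted p = 0.0807). Leaving out 1 library lost Itch and Tax1bp1 in 7 of 9 fits each and Tnfaip8 in 4. Of 12 genes of linear ubiquitin and deubiquitination 1 rose, Sharpin, a subunit of the linear ubiquitin ligase, at 46.8 ± 3.60 CPM in mutants and 35.8 ± 3.02 CPM in controls (SD, n = 5 mutants and 4 controls; log2 fold change 0.39, edgeR adjusted p = 0.0336). The Sharpin call was lost in 15 of 19 alternative fits, among them 8 of 9 that left out 1 library, relative log expression scaling (edgeR adjusted p = 0.0917), DESeq2 (adjusted p = 0.0634) and the fit without mutants 2 and 3 (edgeR adjusted p = 0.0888).

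Downstream of the kinases, 2 of 11 NF-kB subunits and IkB proteins rose and 4 fell, against 20.5% and 11.4% of all genes, and without mutants 2 and 3, 0 rose and 4 fell, against 10.9% and 9.70%. Rela, the main transactivating subunit, rose by 1.05 (edgeR adjusted p = 0.0129) and was lost without mutants 2 and 3 (0.64, edgeR adjusted p = 0.0606). Besides Nfkbia, the IkB family genes Bcl3 and Nfkbid fell (edgeR adjusted p = 0.0091 and 0.0126). Bcl3 had 19.5 ± 9.28 CPM in mutants and 59.2 ± 9.83 CPM in controls (SD, n = 5 mutants and 4 controls). Nfkbid was low, at 1.34 ± 0.622 CPM in mutants and 5.21 ± 1.96 CPM in controls (SD, n = 5 mutants and 4 controls).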

How the data were processed

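Counts per gene symbol were deposited by the authors without normalization, whole numbers in all 9 libraries. Per the submitters' processing notes, the project used mm10 and, without stated roles, Bowtie2, Cell Ranger, DESeq2, HOMER, R 4.1.0, RSEM, Seurat, Signac and STAR. The aligner, counter, annotation and strand setting of these counts are not given in the sources used here. In GENCODE M21, Map3k14 shares 135 exon bases with a gene that has no row in the table, and no other overlap was found.

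Mutant was compared with control in edgeR 4.0.16 (R 4.3.3) on 12402 genes after filterByExpr and TMM scaling, with a robust quasi-likelihood fit and two-sided tests. Log2 CPM used a prior count of 2. Alternatives are given in the closing section, with DESeq2 1.42.0 and limma 3.58.1. On simulated data for this comparison (12026 genes), 14.9% of genes simulated with a 2-fold change were recovered, against 69.9% at 4-fold, while unchanged genes made up 4.82% of calls. The simulation held 94 genes changed 2-fold and 93 changed 4-fold, whereas 3964 of 12402 genes were called in the real fit. With so few changed genes the adjusted threshold is harder to pass, so these shares do not measure the power of the real comparison.

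The 10 genes, lists and alternatives were chosen with earlier results of these data known, and the kB consensus search was added after the promoters were seen. Named pathway genes were up to 4 of lowest p per list. No pair of libraries was identical within sampling noise. Coordinates are RefSeq GRCm38. Exon lengths are the union of GENCODE M21 basic exons. Of the listed symbols, 3 were found under an older symbol. Protein sequences were not used here.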

Additional observations from a re-analysis of the deposited data

Results flagged for a closer look

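In a group of 5 mutants, Ikbkg had 78.5 CPM in mutant 1, apart from the other mutants, which lay between 88.0 and 89.4 CPM. The gap was 0.876 of the group's range, above the 95% critical value of 0.71 of Dixon's test. The value remained above each control. It was the only such value among 34 groups of gene levels and ratios examined. Chance flags about 1 group in 20, so 1 flag among 34 is no more than chance would give.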

How the results depend on the processing

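Of the alternatives, Ikbkg kept its direction in 19 of 19 and its call in 17, and Tnfaip3 kept its direction in 18 and its call in 17. The 3 genes higher in mutants became 1 with relative log expression scaling, without the low-count filter, with the replicate block and without mutants 2 and 3, and 0 with either score as a covariate (3 of the 10 genes at an unadjusted p under 0.05 with the endocrine score, 0 with the acinar score, both edgeR). The 1 lower gene became 2 (Map3k14 added) with relative log expression scaling, DESeq2 and limma-voom, and 0 with either score. Leaving out each library gave 1 to 3 genes higher and 1 to 3 lower, with 3 lower (Chuk and Map3k14 added) without mutant 4. Over all genes, 2545 were higher and 1419 lower. The counts were 1658 and 742 with the replicate block, 1368 higher without mutants 2 and 3, 432 and 56 with the endocrine score, 0 and 0 with the acinar score, 2555 lower with DESeq2 and 2258 lower with limma-voom, and between 1575 and 2686 higher and 680 and 1810 lower with each library left out. The share of higher calls was 64.2%, against 52.0% with relative log expression scaling and 49.6% with DESeq2. Of the 77 pathway genes, 7 fell, against 11 by DESeq2 and 11 by limma-voom. Signs turned with the acinar score for Tnfaip3 (0.80), Cyld (0.59), Traf3 (0.066) and Traf2 (-0.034), with the endocrine score for Chuk (0.088), Cyld (0.28) and Traf2 (-0.062), and without mutants 2 and 3 for Cyld (0.013); the cause was not tested. Deviations of same-numbered libraries had correlations from -0.05 to 0.18 over 4 pairs. The labels state no pairing, and these correlations cannot exclude it, because the mutants differed widely in tissue make-up. In the replicate block mutant 5, without a partner, carries no weight, and Ikbkb and Tnip1 no longer passed (edgeR adjusted p = 0.0918 and 0.138). Of the 3 genes nearest in pattern, 2 were shared without mutants 2 and 3 for Ikbkg and Tnfaip3, 1 for Tnip1 and 0 for Ikbkb. Depth limits Map3k14, with at most 30 counts a library.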

Other observations

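The controls did not form an even group for some of these genes. Controls 3 and 4 had more Tnip1 (62.5 and 73.7 CPM) than controls 1 and 2 (43.2 and 36.7 CPM), and more Map3k14 (3.51 and 3.35 CPM, against 2.46 and 1.90 CPM). They had less Chuk (34.5 and 45.9 CPM, against 63.3 and 70.7 CPM). In the same libraries the 12 ductal markers summed to 13379 and 8929 CPM, against 4938 and 4713 CPM in controls 1 and 2, and Cd14, a receptor of bacterial lipopolysaccharide counted here among the leukocyte markers, had 421 and 313 CPM, against 37.9 and 40.1 CPM. In mutants Cd14 ranged from 207 to 529 CPM. These libraries were picked out after their values were seen, and no test was made.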
